A study of Arabidopsis thaliana with 12 samples.

Results

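Glutaredoxins are small oxidoreductases that use glutathione to reduce disulfides or to remove glutathione from proteins, and glutathione reductase then recycles the glutathione with NADPH. The 6 genes described here are GRXC1 (AT5G63030), GRXC2 (AT5G40370), ROXY1 (AT3G02000), ROXY2 (AT5G14070), GRX480 (AT1G28480) and the glutaredoxin AT4G33040. They were chosen by name, with earlier results of these data known, as the probe sets annotated to one of these genes and no other. Each gene had 1 such probe set, which gave 6 of the 22746 probe sets tested and 6 of the 13355 named genes on the array. Counts of called genes among the 6 are thus a description, not a test of the family.

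The signals come from whole roots of Arabidopsis thaliana seedlings on 12 Affymetrix arrays, 3 for each combination of genotype and treatment. The groups were afb3-1 given 5 mM KNO3, afb3-1 given 5 mM KCl, Ws given 5 mM KNO3 and Ws given 5 mM KCl, each for 2 h. Ws is the wild type, and the labels describe afb3-1 as a mutant of the auxin receptor AFB3. Plants of every group had grown for 14 days without nitrate, on 0.5 mM ammonium succinate as the nitrogen source with 3 mM sucrose, and were treated on day 15 as the lights came on and cut for roots at the end of the treatment. KCl controls for the potassium in the nitrate salt. The labels call the 3 arrays of a group independent biological replicates, and p-values measure the spread between them.

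The glutaredoxin family of plants has several classes. GRXC1 and GRXC2 belong to the classical CPYC class, named for the active site motif, and are glutathione-dependent reductases of which plants need at least one to be viable. GRXC1 is also known to bind an iron-sulfur cluster. ROXY1, ROXY2, GRX480 and AT4G33040 belong to the CC-type class, which is found in land plants and carries paired cysteines in the active site. CC-type proteins bind TGA transcription factors of the bZIP family. ROXY1 is known from petal development, and ROXY1 and ROXY2 together from anther development. GRX480 is induced by salicylic acid and represses a jasmonate and ethylene defence marker, PDF1.2. Some CC-type members are known to take part in signalling of nitrogen demand and in root growth on nitrate. The class of each locus was taken from general knowledge and not from the array annotation.

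All values below are the deposited log2 signals, on which a difference of 1 is a factor of 2, and signals of different genes are not set against each other because probe sets differ in brightness. The median signal of an array lay between 3.78 and 3.93. The dimmest tertile of probe sets had a mean up to 2.32, and fold changes can be understated there. ROXY2 lay in it, with a mean of 2.30 over all arrays, and ROXY1 lay just above it at 2.47. The other means were 4.66 for GRX480, 5.77 for GRXC1, 6.20 for AT4G33040 and 8.82 for GRXC2. AFB3 had no named probe set, so the mutated gene was not used to check the genotype labels. The measured root hair expansins EXPA7 and EXPA18, 2 of 9 root markers, averaged between 4.65 and 6.17 on every array. The 2 of 8 shoot markers that were measured, RCA and LHCB4.1, were also present, with means between 5.03 and 7.20. None of the 6 flower markers had a named probe set. The mean of the 24 spike-in control probe sets was 4.33 on Ws KCl replicate 3, against 3.18 to 3.71 on the other 11 arrays. In whole roots, fewer cells of a type and less RNA per cell cannot be told apart.

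**Figure D1:**
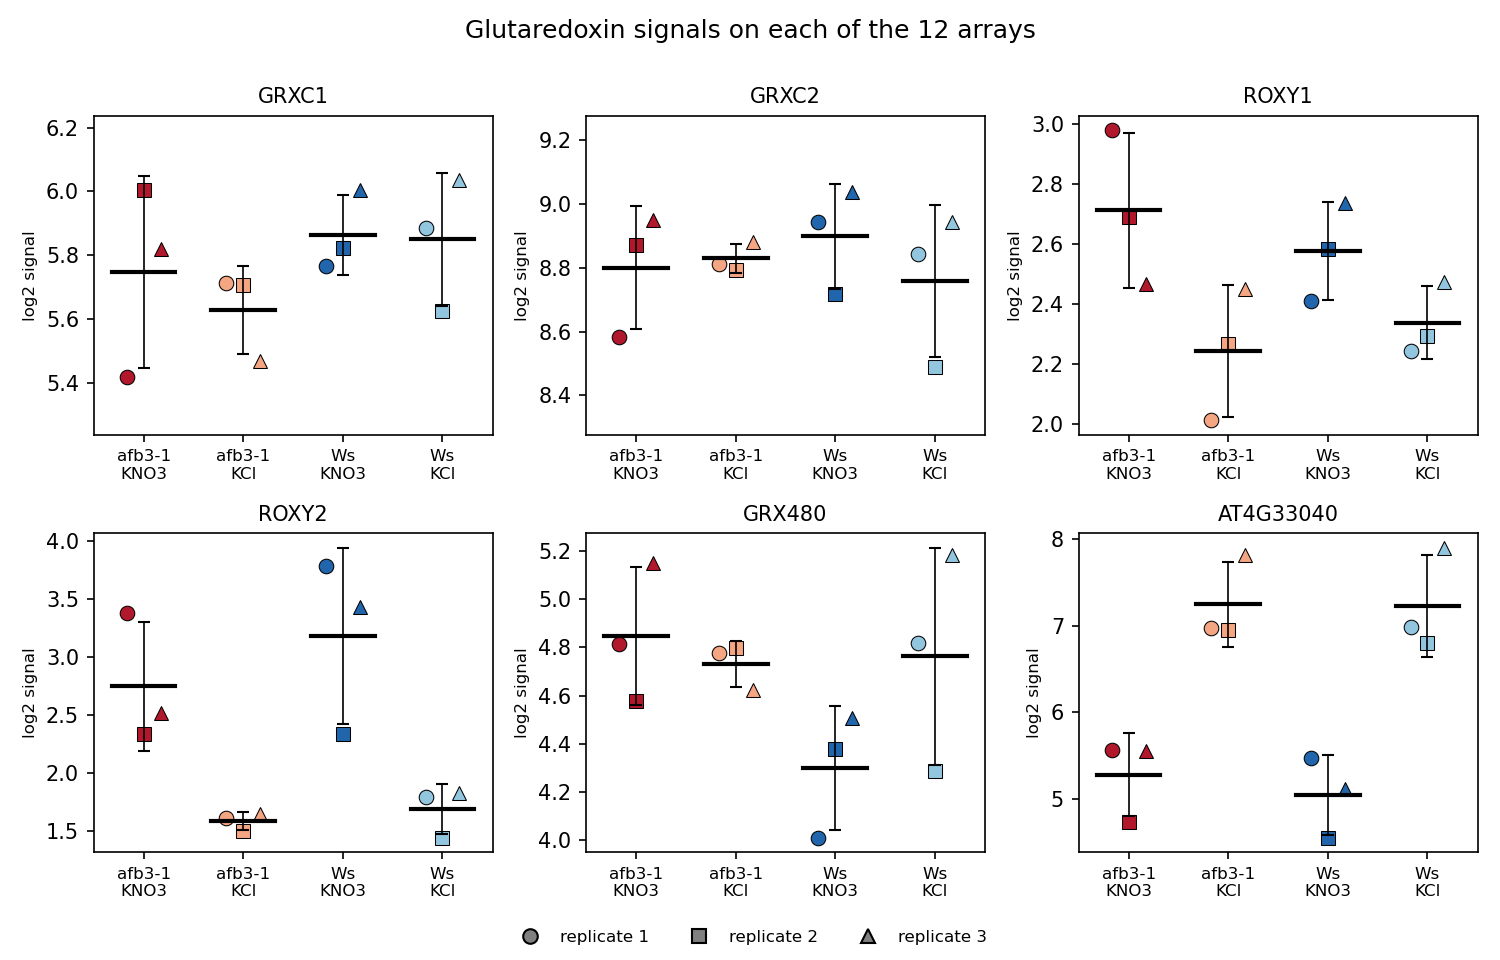
Log2 signal of each glutaredoxin on the 12 arrays, with 1 panel per gene and its own vertical axis, which does not start at 0. Points are arrays, shapes are replicate numbers, bars are group means and whiskers are SD (n = 3). AT4G33040 lies at 4.56 to 5.56 on the KNO3 arrays of both genotypes and at 6.80 to 7.90 on the KCl arrays, and ROXY2 lies at 2.34 to 3.79 on KNO3 arrays and 1.45 to 1.83 on KCl arrays.

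The first question was which glutaredoxins respond to nitrate in each genotype. In afb3-1, AT4G33040 fell by 3.90-fold, and no glutaredoxin rose past the threshold, an adjusted p of 0.05 in limma over all probe sets. Hence 0 of 6 were higher, against 1.79% of all probe sets, and 1 of 6 was lower, against 0.967%. At an unadjusted p under 0.05 there were 3 of 6, AT4G33040, ROXY2 and ROXY1, where 11.1% of all probe sets were. The median log2 change over the 6 genes was 0.12, and over all probe sets it was −0.0042.

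Among the 6 genes, AT4G33040 had the largest nitrate response in both genotypes. It had 5.56, 4.73 and 5.55 in afb3-1 KNO3 replicates 1, 2 and 3, against 6.97, 6.95 and 7.81 in afb3-1 KCl replicates 1, 2 and 3. The KNO3 arrays lay below all KCl arrays, as for 8.84% of probe sets. Means were 5.28 ± 0.48 in afb3-1 KNO3 and 7.25 ± 0.49 in afb3-1 KCl (SD, n = 3 each), a log2 change of −1.96 ± 0.36 (SE) with an interval of −2.75 to −1.18 and an adjusted p of 0.0114. It was fall number 10 by size. The call held without any single afb3-1 array (adjusted p 0.0284 to 0.0490) and was lost without variance moderation, in which limma draws each probe set's spread towards that of the others (adjusted p = 0.0659).

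ROXY2 in afb3-1 had 3.38, 2.34 and 2.52 with KNO3, against 1.61, 1.50 and 1.65 with KCl, in order of replicate number, and the KCl values lay below the limit of the dimmest tertile, 2.32. The KNO3 arrays lay above the KCl arrays, as for 8.19% of probe sets. The log2 difference was 1.16 ± 0.34 (SE), with an interval of 0.41 to 1.91 and an unadjusted p of 0.00599, and it did not pass the threshold (adjusted p = 0.132). Array weights, which give less weight to arrays that depart from their group, brought it past the threshold (adjusted p = 0.0310).

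For ROXY1 the 3 afb3-1 KNO3 arrays had 2.98, 2.69 and 2.47, against 2.01, 2.27 and 2.45 on the afb3-1 KCl arrays. They lay above the KCl arrays by a gap as narrow as that between 2.47 and 2.45. The difference was 0.47, with an interval of 0.12 to 0.81 and an adjusted p of 0.207 (unadjusted p = 0.0121). GRX480 had 4.81, 4.58 and 5.15 with KNO3 and 4.78, 4.80 and 4.62 with KCl in afb3-1, which overlapped, and the difference was 0.12 (−0.37 to 0.60). GRXC1 averaged 5.75 ± 0.30 in afb3-1 KNO3 and 5.63 ± 0.14 in afb3-1 KCl, a difference of 0.12 (−0.24 to 0.47). GRXC2 averaged 8.80 ± 0.19 in afb3-1 KNO3 and 8.83 ± 0.05 in afb3-1 KCl, a difference of −0.03 (−0.34 to 0.29), which was 0.0071 after median centring.

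In Ws, measured on separate arrays, AT4G33040 also fell and ROXY2 rose, while ROXY1, GRX480, GRXC1 and GRXC2 did not pass the threshold. The fall of AT4G33040 was 4.53-fold and the rise of ROXY2 was 2.82-fold. Thus 1 of 6 glutaredoxins was higher with nitrate, where 1.85% of all probe sets were, and 1 of 6 was lower, where 1.05% were. The median log2 change was 0.08 over the 6 genes and −0.03 over all probe sets.

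The signal of AT4G33040 was 5.47, 4.56 and 5.12 in Ws KNO3 replicates 1, 2 and 3, against 6.98, 6.80 and 7.90 in Ws KCl replicates 1, 2 and 3. All 3 KNO3 arrays lay below all 3 KCl arrays, as for 10.4% of all probe sets. The groups averaged 5.05 ± 0.46 in Ws KNO3 and 7.23 ± 0.59 in Ws KCl (SD, n = 3 each). The log2 change was −2.18 ± 0.36 (SE), with a 95% confidence interval of −2.97 to −1.39 and an adjusted p of 0.00612. By size this was fall number 7 among the 22746 probe sets. The call held when any single Ws array was left out, with adjusted p between 0.0106 and 0.0292.

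ROXY2 moved the other way. It had 3.79, 2.34 and 3.43 in Ws KNO3 replicates 1, 2 and 3, against 1.79, 1.45 and 1.83 in Ws KCl replicates 1, 2 and 3. The 3 KNO3 arrays lay above the 3 KCl arrays, as for 6.91% of all probe sets. Replicate 2 of KNO3 lay closest to the KCl arrays. The means were 3.19 ± 0.76 in Ws KNO3 and 1.69 ± 0.21 in Ws KCl (SD, n = 3 each), a log2 change of 1.49 ± 0.34 (SE) with an interval of 0.74 to 2.25 and an adjusted p of 0.0407. The call was lost, with the same direction, when any of 5 single arrays was left out: the adjusted p was 0.140 without KNO3 replicate 1, 0.176 without KNO3 replicate 3, 0.0987 without KCl replicate 1, 0.124 without KCl replicate 2 and 0.0692 without KCl replicate 3. Without KNO3 replicate 2 it was 0.00363. It was also lost with median centring of the arrays (adjusted p = 0.0591) and in a fit of the 6 Ws arrays alone (adjusted p = 0.149), and the probe set was not tested where the dimmest tertile was left out.

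ROXY1, the gene closest to ROXY2 in known function, did not pass in Ws. Its signal was 2.41, 2.58 and 2.73 in Ws KNO3, against 2.24, 2.29 and 2.47 in Ws KCl, in order of replicate number, and the groups overlapped. The log2 difference was 0.24 with an interval of −0.10 to 0.58 (adjusted p = 0.586). On the signal scale, the interval leaves out a change of the size seen for ROXY2. It covers the spread between arrays only, not fold changes understated by a dim signal.

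GRX480 had 4.01, 4.38 and 4.51 in Ws KNO3 replicates 1, 2 and 3, against 4.82, 4.29 and 5.18 in Ws KCl replicates 1, 2 and 3. The groups overlapped through KCl replicate 2. The log2 difference was −0.46, with an interval of −0.95 to 0.02, and did not pass (unadjusted p = 0.0592, adjusted p = 0.406). PDF1.2, the defence marker that GRX480 represses, had a difference of 0.02 (adjusted p = 0.967). It was the only 1 of 5 listed salicylate and jasmonate markers with a named probe set. With a mean of 2.24 it lay in the dimmest tertile, where a low signal limits what a change could show.

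The classical glutaredoxins varied little. GRXC1 averaged 5.86 ± 0.12 in Ws KNO3 and 5.85 ± 0.21 in Ws KCl (SD, n = 3 each). Its difference was 0.01 with an interval of −0.34 to 0.37, and after median centring the estimate was −0.0048. GRXC2 averaged 8.90 ± 0.16 in Ws KNO3 and 8.76 ± 0.24 in Ws KCl, a difference of 0.14 with an interval of −0.18 to 0.46. The groups overlapped for both genes. For each of them, the interval leaves out a change of 2-fold in either direction.

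**Figure D2:**
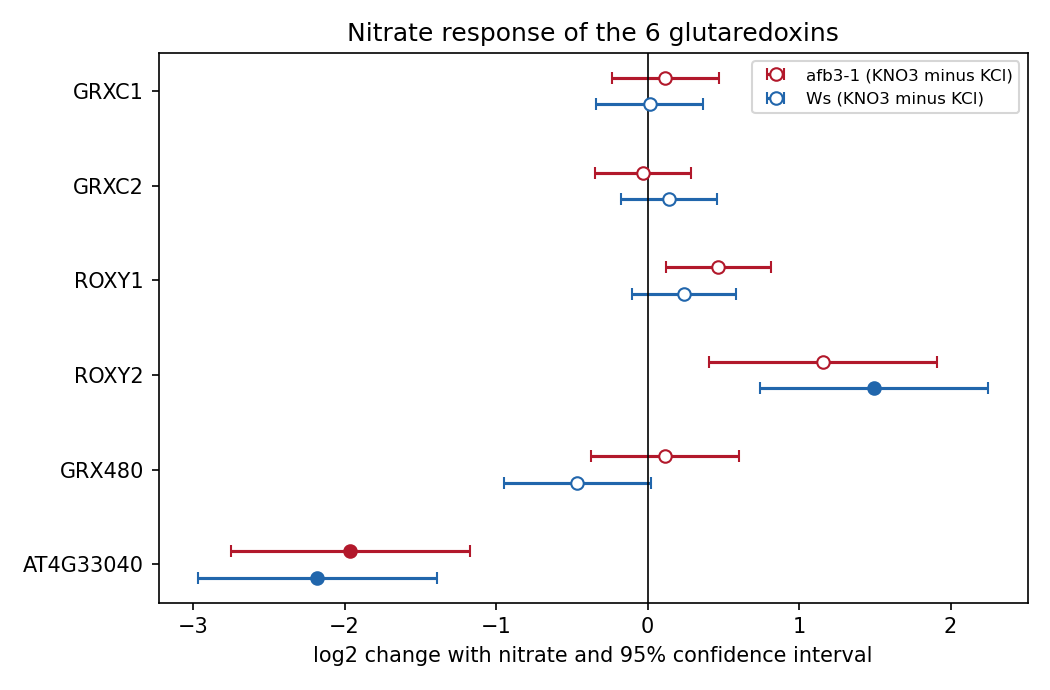
Log2 change with nitrate (KNO3 minus KCl, horizontal axis) of the 6 glutaredoxins in afb3-1 and Ws, with 95% confidence intervals from limma. Filled points have an adjusted p under 0.05: AT4G33040 in afb3-1 (−1.96) and in Ws (−2.18), and ROXY2 in Ws (1.49).

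Averaging the genotypes first within each replicate number, which leaves 3 values per treatment, gave the response common to both. AT4G33040 was lower by 2.07 on the log2 scale (estimate −2.07 ± 0.33 SE, adjusted p = 0.0299), 1 of 6 glutaredoxins where 0.769% of probe sets were lower. ROXY2 was 1.33 ± 0.30 (SE) higher and did not pass (adjusted p = 0.0945), so that 0 of 6 were higher past the threshold, against 1.58% of probe sets. All 6 KNO3 arrays nevertheless lay above all 6 KCl arrays for ROXY2, as for 2.96% of probe sets, and below them for AT4G33040, as for 2.55%. ROXY1 was at 0.35 (adjusted p = 0.210), GRX480 at −0.17 (adjusted p = 0.820), GRXC1 at 0.07 and GRXC2 at 0.06. With only 4 residual degrees of freedom, the call of AT4G33040 was lost in 5 of 6 cases when a replicate number of a treatment was left out, with adjusted p of 0.0718, 0.0555 and 0.119 without KNO3 numbers 1, 2 and 3 and of 0.112 and 0.0671 without KCl numbers 1 and 2. Without KCl number 3 it was 0.0284, and without variance moderation 0.213.

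The design's main question was whether AFB3 is needed for the response to nitrate. No glutaredoxin had a response that differed between genotypes in limma's interaction test (0 of 6). Over all probe sets 0% passed, and 2.92% had an unadjusted p under 0.05, among which were no glutaredoxins. Subtracting the log2 change in Ws from that in afb3-1 gave 0.22 for AT4G33040 (95% confidence interval −0.90 to 1.33) and −0.34 for ROXY2 (−1.40 to 0.73). These intervals come from the fit without pairs. With same-numbered arrays as pairs they were −0.13 to 0.56 for AT4G33040 and −0.82 to 0.15 for ROXY2, and again none passed the threshold. For ROXY1 the difference was 0.23 (−0.26 to 0.72), for GRXC1 0.10 (−0.40 to 0.60) and for GRXC2 −0.17 (−0.62 to 0.28). GRX480 had the largest estimate among the 6 genes, 0.58 (−0.11 to 1.27, unadjusted p = 0.0904). AT4G33040 turned below 0 without Ws KNO3 replicate 2 (−0.03) or Ws KCl replicate 3 (−0.12).

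Without nitrate, no glutaredoxin was called between the genotypes. In KCl 0 of 6 differed past the threshold between afb3-1 and Ws, as did 0% of probe sets, with 2.65% of these and none of the 6 at an unadjusted p under 0.05. Differences, afb3-1 minus Ws, ran from −0.22 for GRXC1 (interval −0.57 to 0.13) to 0.07 for GRXC2. AT4G33040 was at 0.02 (−0.77 to 0.81), ROXY2 at −0.10 (−0.86 to 0.65), ROXY1 at −0.09 and GRX480 at −0.03.

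With nitrate, 0 of 6 passed as well, and 0% of probe sets. In the fit without pairs, GRX480 was the only one of the 6 with an unadjusted p under 0.05 (0.0304, adjusted p = 1.00), where 2.37% of probe sets had one. Its 3 afb3-1 KNO3 arrays, at 4.58 to 5.15, lay above its 3 Ws KNO3 arrays, at 4.01 to 4.51, as for 5.41% of probe sets. The difference, afb3-1 minus Ws, was 0.55 with an interval of 0.06 to 1.03. Between same-numbered arrays it was 0.80, 0.20 and 0.64 in KNO3, against −0.04, 0.51 and −0.56 in KCl. The shoot markers separated the same arrays: the mean of RCA and LHCB4.1 was 6.21 to 6.56 in afb3-1 KNO3, against 5.03 to 5.86 in Ws KNO3, and their part in the GRX480 difference was not tested. ROXY2 was at −0.44 (−1.19 to 0.31), with same-numbered differences of −0.41, 0.01 and −0.92, AT4G33040 at 0.23, ROXY1 at 0.14, GRXC1 at −0.12 and GRXC2 at −0.10. With same-numbered arrays as pairs, limma gave intervals of 0.14 to 0.96 for GRX480 (unadjusted p = 0.0140, adjusted p = 0.498) and of −0.78 to −0.09 for ROXY2 (unadjusted p = 0.0181, adjusted p = 0.524), and 0 probe sets were called.

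Ordered by mean, the levels of AT4G33040 were highest in afb3-1 KCl, then in Ws KCl, afb3-1 KNO3 and Ws KNO3, and neighbours in that order overlapped except at the step between Ws KCl and afb3-1 KNO3. ROXY2 was highest in Ws KNO3, then in afb3-1 KNO3, Ws KCl and afb3-1 KCl. Only the middle step, with group means 1.06 apart, separated arrays without overlap. For GRXC1, GRXC2 and ROXY1 all neighbouring groups overlapped. For GRX480 the order was afb3-1 KNO3, Ws KCl, afb3-1 KCl and Ws KNO3. The lowest group lay apart from its neighbour afb3-1 KCl but overlapped with Ws KCl. The share of all probe sets with such gaps between neighbours was not computed.

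Variation within groups was uneven among the 6 genes. AT4G33040 and ROXY2 had within-group SDs of 0.51 and 0.48, larger than those of 95.4% and 94.7% of probe sets. The SDs of the others were 0.30 for GRX480, 0.20 for GRXC1, 0.20 for ROXY1 and 0.18 for GRXC2. The spread of AT4G33040 was shared by the genotypes: replicate 3 was the highest KCl array and replicate 2 the lowest KNO3 array in both afb3-1 and Ws. For ROXY2, replicate 1 was the highest and replicate 2 the lowest KNO3 array in both genotypes. The root hair markers also varied by replicate number in KNO3, with means of 6.03, 4.72 and 4.84 in afb3-1 KNO3 and 5.88, 4.65 and 5.61 in Ws KNO3, and their part in the spread of the 2 glutaredoxins was not tested. Leaving out both KCl arrays numbered 3, a choice made after the data were seen, gave −1.68 for AT4G33040 in afb3-1 and −1.84 in Ws, both past the threshold, and an adjusted p of 0.0803 for ROXY2 in Ws.

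Over the 12 arrays, which share the nitrate treatment and the replicate numbers, Pearson's r was −0.67 between ROXY2 and AT4G33040, 0.66 between ROXY2 and ROXY1, 0.61 between GRXC1 and GRXC2 and −0.57 between AT4G33040 and ROXY1. The remaining 11 pairs lay between −0.34 and 0.40. The named genes whose signal was most like that of AT4G33040, among 13354, were AT4G17670 (r = 0.986), AT1G55760 (r = 0.984) and AT5G02420 (r = 0.974). They fell with nitrate in both genotypes, by 2.16, 1.89 and 1.38 on the log2 scale in afb3-1 (adjusted p = 0.00794, 0.00871 and 0.0384) and by 2.53, 1.65 and 1.56 in Ws (adjusted p = 0.00285, 0.0208 and 0.0199). Those most like ROXY2 were AT3G53770 (r = 0.990), AT1G49450 (r = 0.954) and AT3G46880 (r = 0.949). All 3 had higher estimates with nitrate in afb3-1, but only AT3G46880 passed the threshold (2.29, adjusted p = 0.0225). AT3G53770 was at 1.60 (adjusted p = 0.0756) and AT1G49450 at 1.18 (adjusted p = 0.102). In Ws all 3 passed, with AT3G53770, AT1G49450 and AT3G46880 higher by 1.91, 1.46 and 2.65 (adjusted p = 0.0302, 0.0357 and 0.00943). The companions of both genes were picked by likeness over these same arrays. Their changes with nitrate follow largely from that choice and are no separate evidence.

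**Figure D3:**
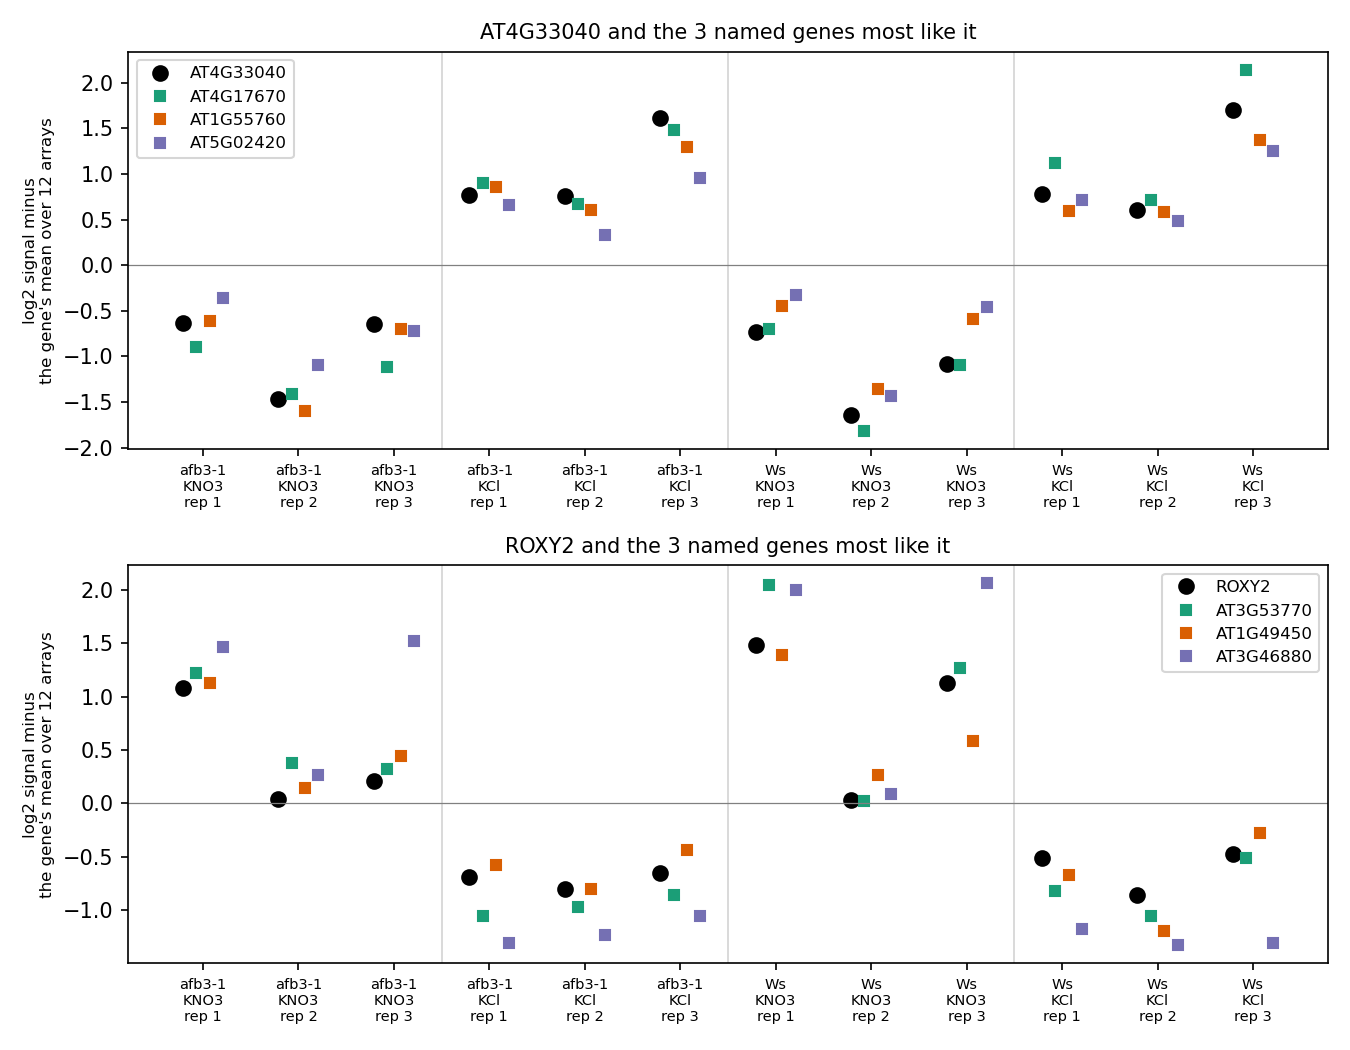
Log2 signal minus the gene's own mean over the 12 arrays (vertical axis), for AT4G33040 and the 3 genes most like it (upper panel) and for ROXY2 and the 3 genes most like it (lower panel), by array. Replicate 2 of KNO3 is the lowest KNO3 array in both genotypes for AT4G33040 and for ROXY2, and AT3G53770 follows ROXY2 with r = 0.990.

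The other 4 glutaredoxins had looser companions. Each companion was among the 3 highest of 13354 correlations over only 12 arrays. How high an r unrelated genes reach by such a choice was not tested. GRXC1 was most like MT1C, a metallothionein (r = 0.884), then AT2G10780 (0.809) and AT4G20030 (0.793). GRXC2 was most like ATSBT5.2, a subtilisin-type protease (r = 0.883), then AT5G54870 (0.851) and AT3G22940 (0.844). ROXY1 was most like AT3G62320 (0.902), AT2G23680 (0.896) and AT5G38300 (0.891). GRX480 was most like nad4L (0.827) and cox1 (0.805), which encode subunits of mitochondrial respiratory complexes, and AT5G66770 (0.798). AT2G10780, AT3G22940 and AT3G62320 were dim, with means of 1.05, 1.45 and 1.38, below the limit of the dimmest tertile, 2.32. None of these 12 genes passed the threshold in either nitrate comparison. They were picked by likeness to 4 glutaredoxins that did not pass, so this follows largely from that choice and is no separate evidence.

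Beyond the 6 genes, the array had named probe sets for 22 of 31 listed glutaredoxin loci: 5 of 6 classical, 17 of 21 CC-type and 0 of 4 CGFS-type loci, a class that binds iron-sulfur clusters. Of the 5 classical loci none passed in either genotype, with medians of −0.03 in afb3-1 and 0.01 in Ws. AT1G77370, the classical locus outside the 6 genes with the smallest p in afb3-1, was at 0.21 there (adjusted p = 0.791) and at 0.01 in Ws, where quantile normalization gave −0.02 and median centring −0.01. Of the 17 CC-type loci, 1 rose and 1 fell in afb3-1, and 2 rose and 1 fell in Ws, with medians of 0.11 in afb3-1 and 0.02 in Ws. Of all probe sets 1.79% were higher and 0.967% lower in afb3-1 (median −0.0042), and 1.85% were higher and 1.05% lower in Ws (median −0.03). In the dimmest tertile were 11 of the 17, where a low signal limits what a change could show. At an unadjusted limma p under 0.05 were 6 of the 17 in afb3-1, against 11.1% of probe sets, and 4 in Ws, against 3016 of 22746. Among the 6 were 2 dim loci, also named after their values were seen. AT4G15680 was at 0.36 in afb3-1 (adjusted p = 0.102) and 0.15 in Ws (adjusted p = 0.590). AT4G15690 was at 0.24 (adjusted p = 0.282) and 0.08 (adjusted p = 0.785).

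The CC-type locus with the largest change was AT3G62930, which rose in both genotypes. Its signal was 5.22, 4.33 and 4.96 in afb3-1 KNO3, against 1.58, 1.55 and 1.60 in afb3-1 KCl, a 9.57-fold change (3.26 ± 0.30 SE, adjusted p = 0.000117). In Ws it was 4.77, 3.81 and 4.93 with KNO3, against 1.53, 2.09 and 2.21 with KCl, a 5.89-fold change (2.56 ± 0.30 SE, adjusted p = 0.000629). All KCl values lay below the limit of the dimmest tertile, 2.32, so the size of both fold changes is uncertain. In both genotypes the KNO3 arrays lay above the KCl arrays, as for 8.19% of probe sets in afb3-1 and 6.91% in Ws. Both calls held without any single array. The interaction was 0.70 (−0.24 to 1.64) and did not pass. By locus number its near neighbours in the same class, AT3G62950 and AT3G62960, lay in the dimmest tertile and did not pass, at 0.08 and −0.44 in afb3-1 and 0.0037 and −0.14 in Ws.

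Named after their values were seen, AT5G11930 and AT1G06830 had the largest remaining estimates of the class. AT5G11930 had 6.30, 4.50 and 6.27 in afb3-1 KNO3, against 6.48, 6.37 and 7.83 in afb3-1 KCl, and 6.10, 3.88 and 5.81 in Ws KNO3, against 6.59, 6.45 and 8.07 in Ws KCl. KNO3 arrays lay below KCl arrays in both genotypes, as for 8.84% of probe sets in afb3-1 and 10.4% in Ws. KNO3 replicate 2 was lowest and KCl replicate 3 highest, as for AT4G33040. The differences of −1.20 (adjusted p = 0.625) and −1.77 (adjusted p = 0.282) did not pass, with an SE of 0.69 each. Without single arrays they ran from −1.51 to −0.61 in afb3-1, where leaving out KNO3 replicate 2 (−0.61) or KCl replicate 3 (−0.73) gave the smallest, and from −2.19 to −1.08 in Ws, smallest without KNO3 replicate 2. AT1G06830 had a within-group SD of 1.60, larger than that of 99.9% of probe sets. It stood at 3.69, 2.77 and 6.31 in afb3-1 KCl and at 3.55, 2.91 and 6.26 in Ws KCl, and its nitrate differences were 0.94 in afb3-1 (interval −1.49 to 3.36) and 1.14 in Ws (−1.28 to 3.57). Without single arrays these ran from 0.19 (without KCl replicate 2) to 1.97 (without KCl replicate 3) in afb3-1 and from 0.48 to 2.15, without the same numbers, in Ws.

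**Figure D4:**
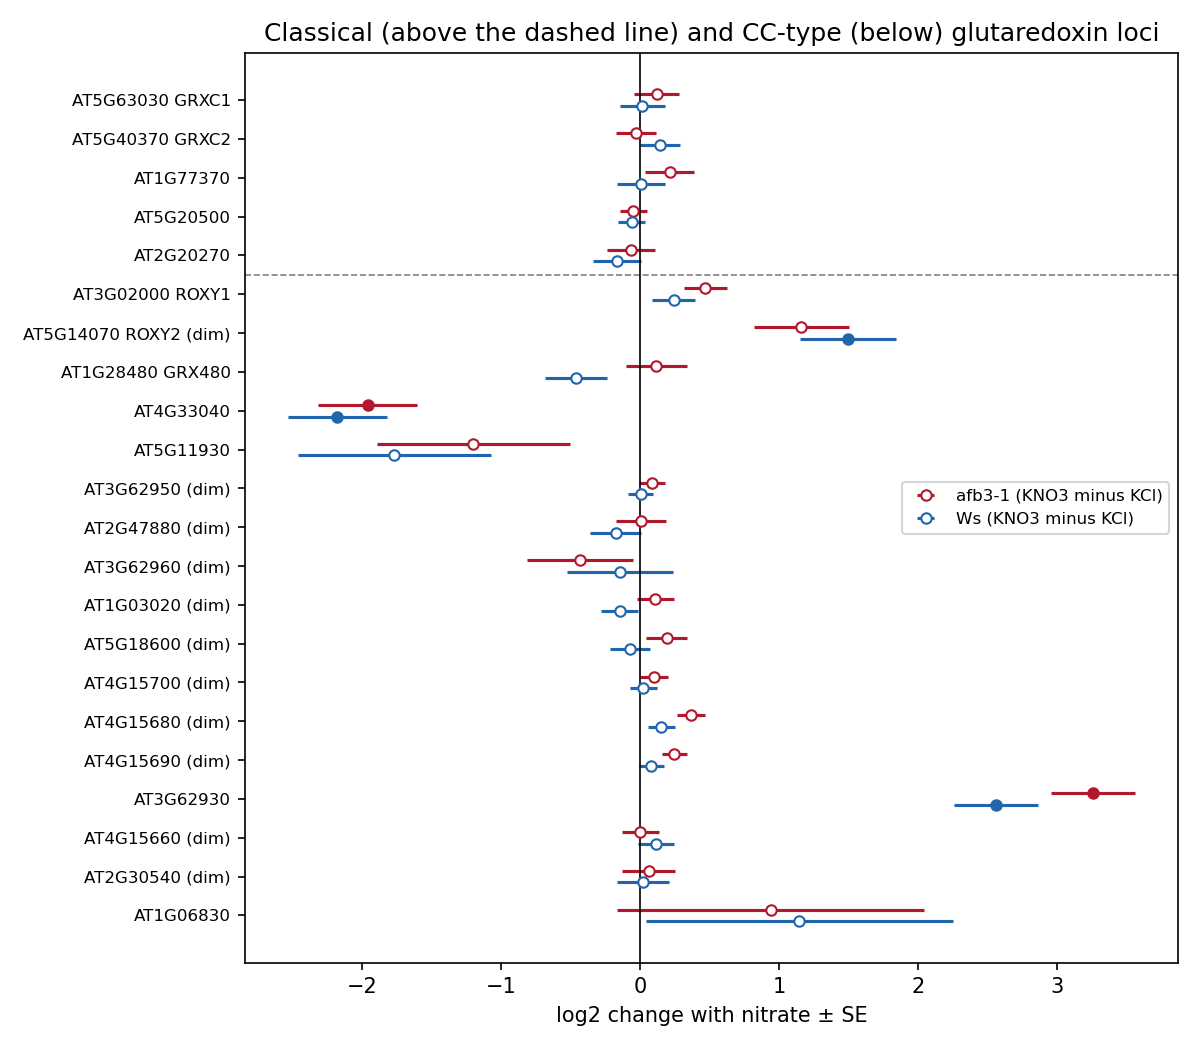
Log2 change with nitrate (KNO3 minus KCl) ± SE in afb3-1 and Ws for the 5 classical and 17 CC-type loci with a named probe set, where dim marks the dimmest tertile and filled points have an adjusted p under 0.05. The filled points are AT4G33040 and AT3G62930 in both genotypes and ROXY2 in Ws.

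The pathway that supplies glutaredoxins with electrons was measured in part. Of 7 genes of glutathione supply, 2 had named probe sets, the glutathione reductases GR1 (AT3G24170) and GR (AT3G54660), and neither passed. GR1 was at −0.10 in afb3-1 (adjusted p = 0.923) and −0.08 in Ws (adjusted p = 0.882). GR was at 0.12 in afb3-1 (adjusted p = 0.893) and −0.06 in Ws (adjusted p = 0.916), and array weights turned the Ws estimate to 0.01. None of the 12 listed TGA factors and partners had a named probe set.

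The thioredoxin system, which reduces disulfides alongside the glutaredoxins, had 3 of 16 listed genes measured, and 2 rose in both genotypes. Of all probe sets, 1.79% were higher in afb3-1 and 1.85% in Ws. NTRC (AT2G41680), a plastid NADPH-dependent thioredoxin reductase with its own thioredoxin domain, had 5.30, 5.34 and 5.73 in afb3-1 KNO3 against 4.24, 4.29 and 4.48 in afb3-1 KCl, a change of 1.12 ± 0.20 (SE, adjusted p = 0.0108). In Ws it had 5.33, 5.37 and 5.64 with KNO3 against 4.50, 4.20 and 3.63 with KCl, a change of 1.34 ± 0.20 (SE, adjusted p = 0.00376). AT3G52960 rose by 0.61 ± 0.11 in afb3-1 (adjusted p = 0.00932) and by 0.73 ± 0.11 in Ws (adjusted p = 0.00309). The calls in Ws held without any single array. In afb3-1, NTRC was lost without KNO3 replicate 3 (adjusted p = 0.0627), KCl replicate 1 (0.0579) or KCl replicate 2 (0.0530), and AT3G52960 without KNO3 replicate 3 (0.0533) or KCl replicate 2 (0.0559). The afb3-1 call of NTRC was also lost without variance moderation (adjusted p = 0.0532), and that of AT3G52960 in a fit of the compared groups (adjusted p = 0.0557). PRXIIF, a mitochondrial peroxiredoxin, was at −0.06 in afb3-1 and −0.01 in Ws and did not pass.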

How the data were processed

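Biotin-labelled RNA was hybridized to 12 arrays, per the labels. The deposited values were log2 signals of 22810 probe sets, as processed by the authors. What was done for background correction, normalization and summarization was not given in the sources used here, and sorted values of any array lay within 0.176 of the mean of the sorted arrays, so no further normalization was applied. A shift shared by most genes would be hidden. Arrays carry no read depth, and the precision is limited by the number of arrays.

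The 64 control probe sets were left out. Genes came from the platform annotation, updated through the RefSeq gene table. It named 1 gene for 13513 probe sets, of which 13436 matched the table, more than 1 gene for 503, and no gene for 8730. The probe set with the highest mean stood for a gene. No coordinates are given, since no source used here gives the build.

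Groups came from the sample titles. All 12 arrays entered 1 linear model with a mean for each group, in limma 3.58.1 under R 4.3.3 (8 residual and 3.20 prior degrees of freedom), with two-sided tests and Benjamini-Hochberg adjustment over the 22746 probe sets of each of 6 contrasts. The contrast averaged over genotypes was fitted to the means of same-numbered arrays. The procedure was tested on simulated data with independent errors between arrays, to check that known changes come out with the right size and sign. The simulation held no deviations shared by same-numbered arrays, so it could not show how these act on the p-values. Members, lists and tests were chosen with earlier results of these data known. The text names all 6 genes, at most 4 called genes of each list (or at most 2 of the smallest p in a list with no call), and the 3 genes most correlated with each of the 6.

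Deviations from group means of same-numbered arrays correlated by 0.301 to 0.661 between genotypes within a treatment, so numbers paired arrays there. This comes from the data, not the labels. The main fit of the nitrate response in each genotype took all arrays as independent and did not allow for it. Between treatments the correlation ran from −0.281 to 0.542, and those arrays were taken as unpaired. The alternatives tried were median centring, quantile normalization, a filter on the dimmest tertile, a replicate block, fitting the compared groups only, a variance trend, no moderation, array weights and leaving out each array.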

Additional observations from a re-analysis of the deposited data

How the results depend on the processing

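The fall of AT4G33040 with nitrate kept its direction under every alternative run and its call under all of them in Ws (adjusted p 0.000444 to 0.0455). ROXY2 kept the direction of its nitrate difference throughout. The count of 1 glutaredoxin called in afb3-1 became 0 without moderation and 2 with array weights, and was 1 whichever single array was left out. The count of 2 in Ws became 1 with median centring, without the dimmest tertile, in a fit of the compared groups, without moderation and without both KCl arrays numbered 3, and ran from 1 to 2 when single arrays were left out. The averaged count of 1 became 0 without moderation, 3 with array weights (ROXY1 added, adjusted p = 0.0327) and 2 with arrays taken as independent, and ran from 0 to 1 when a number was left out. Of all probe sets, 628 were called in afb3-1, against 416 without moderation, 1612 with array weights and 380 to 571 without single arrays (380 without KNO3 replicate 3, 387 without KCl replicate 1 and 396 without KCl replicate 2). In Ws the 658 became 338 in a fit of the compared groups, 400 without moderation, 1220 with array weights and 370 to 600 without single arrays, the lowest without KNO3 replicate 3. For the averaged contrast the 534 became 35 without moderation, 1606 with array weights, 1515 with independent arrays and 189 to 553 without a number (286 and 193 without KNO3 numbers 1 and 3, 189 and 261 without KCl numbers 1 and 2).

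As a fixed replicate block, the number brought ROXY2 past the threshold in afb3-1 (adjusted p = 0.0253), which made 2 glutaredoxins called there, and AT5G11930 in Ws (adjusted p = 0.0307). It ended the averaged call of AT3G52960 (adjusted p = 0.0542). The random replicate block within a treatment called 2 glutaredoxins (ROXY2 at adjusted p = 0.0101) and 1045 probe sets in the averaged contrast. The paired fit of the genotype comparisons called 0 probe sets, so it changed no call there, and the GRX480 interaction had an interval of −0.0022 to 1.16.

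Estimates that changed sign never passed the threshold. With array weights they were, for nitrate, −0.0022 for PDF1.2 and 0.010 for GR in Ws, 0.059 for GRXC2 in afb3-1 and −0.010 for PDF1.2 averaged, −0.0018 for the GRXC1 interaction and, for afb3-1 minus Ws, 0.12 for GRX480 in KCl and −0.035 for ROXY1 in KNO3. AT1G77370 in Ws was −0.024 with quantile normalization and −0.014 with median centring, which also gave −0.0048 for GRXC1 in Ws, 0.0071 for GRXC2 in afb3-1 and −0.028 for AT4G33040 in KCl. When single arrays were left out, the ranges that crossed 0 were, for nitrate in Ws, −0.097 to 0.11 for GRXC1, −0.18 to 0.24 for AT1G77370, −0.16 to 0.087 for GR, −0.19 to 0.047 for GR1 and −0.020 to 0.041 for PDF1.2. In afb3-1 they were −0.011 to 0.28 for GRXC1, −0.10 to 0.080 for GRXC2, −0.036 to 0.25 for GRX480, −0.17 to 0.0056 for GR1 and −0.098 to 0.12 for PDF1.2. For the interaction they were −0.025 to 0.27 for GRXC1 and −0.12 to 0.50 for AT4G33040. For afb3-1 against Ws they were, in KCl, −0.063 to 0.16 for GRXC2, −0.27 to 0.35 for AT4G33040, −0.20 to 0.022 for ROXY1 and −0.27 to 0.18 for GRX480, and in KNO3 −0.25 to 0.048 for GRXC1, −0.19 to 0.011 for GRXC2 and −0.012 to 0.51 for AT4G33040. Averaged, they were −0.020 to 0.12 for GRXC2, −0.031 to 0.080 for GR, −0.18 to 0.025 for GR1 and −0.059 to 0.077 for PDF1.2. The causes were not tested. Dim signals limit what could be seen for ROXY1, ROXY2 and most CC-type loci.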
